A study of Mus musculus with 6 samples.

Results

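Hsp90b1, Hspa1a and Hspa1b are chaperone genes, and 1810014B01Rik and Gm20481 are annotated genes on the opposite strand of 2 of them. These 5 genes were taken by symbol from a table of 15286 genes, and all 5 have a row. The loci were selected on the counts of these same libraries, in which the opposite genes stood above the chaperones, so their levels and the balance between strands are given as a description, with no test. The libraries are total RNA from pancreatic islets of 12 week old male mice, 3 WT and 3 flox/flox, with 1 library per mouse. Both groups were littermates on a C57BL/6N background, bred from heterozygous parents and fasted overnight. The flox/flox mice (written P0Rik7flox/flox in the labels, and KO in the library names) have intron 1 of A830019P07Rik interrupted on both alleles by a trapping cassette with a neo gene under its own promoter, flanked by loxP sites and present in every cell, not in islets alone. Isolated islets of both groups were kept for 2 h at 3 mM glucose before RNA extraction. Litter 1 gave 4 libraries (WT2772, WT2777, KO2775 and KO2776) and litter 2 gave WT2931 and KO2938.

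Heat shock proteins of the Hsp70 and Hsp90 families hold nascent or unfolded proteins until they fold. Hsp90b1 encodes GRP94, the Hsp90 of the endoplasmic reticulum (ER), which in beta cells helps fold proinsulin and is induced by the unfolded protein response. Hspa1a and Hspa1b encode near-identical inducible cytosolic Hsp70 proteins that the transcription factor HSF1 switches on after heat or handling stress. 1810014B01Rik is annotated as a transcribed pseudogene, and Gm20481 as a protein-coding gene whose function is not known.

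The total count per library was between 611181 and 800255. The sequencing depth stated in the paper is many times larger, so most reads are not among these counts. Where those reads fell was not tested. The single gene AY036118 took 13.6% to 22.1% of the total count in 5 libraries and 41.0% in KO2938. The islet hormone genes had few counts, with 96 to 205 per library for Ins2, 45 to 77 for Ins1, 23 to 114 for Gcg and 1 to 12 for Sst. All 10 beta cell markers had a row, and their sum was at most 0.0591% of a library. The summed counts were 33 to 146 for 4 alpha cell markers, 15 to 46 for 3 delta and PP cell markers and 29 to 72 for 8 acinar markers. They were 14 to 36 for Krt7, the one ductal marker with a row, 6 to 20 for 4 endothelial, 2 to 7 for 2 stromal and 4 to 15 for 2 immune markers. Reads were counted with HTSeq's default, which uses strand, from strand-specific libraries. Whether the orientation of the libraries matched that setting was not tested, and from the table alone counts of a gene and of its opposite gene cannot be assigned to one transcript or the other. A830019P07Rik was not analysed here, and the genotypes are as labelled.

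In the GENCODE annotation of GRCm38 (mm10), Hsp90b1 (ENSMUSG00000020048) spans 86690209 to 86705509 of chromosome 10, on the minus strand. 1810014B01Rik (ENSMUSG00000097412) spans 86685525 to 86694806 on the plus strand, so that their 3′ parts cross. Their exons share 415 bp in 3 blocks, which is 10.3% of the exon length of Hsp90b1 and 15.6% of that of 1810014B01Rik. The longest block, of 270 bp, lies within exon 12 of 18 of a coding transcript of Hsp90b1 and within the last exon of a 1810014B01Rik transcript. It is printed because reads from here fall on exons of both genes, and is written as the Hsp90b1 strand reads (chr10:86694350-86694619, minus strand).
Hsp90b1: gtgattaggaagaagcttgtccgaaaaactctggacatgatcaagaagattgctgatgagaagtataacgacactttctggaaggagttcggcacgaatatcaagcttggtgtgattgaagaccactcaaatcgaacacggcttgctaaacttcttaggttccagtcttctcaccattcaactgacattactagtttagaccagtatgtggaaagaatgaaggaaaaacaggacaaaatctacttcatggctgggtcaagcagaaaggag

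**Figure D1:**
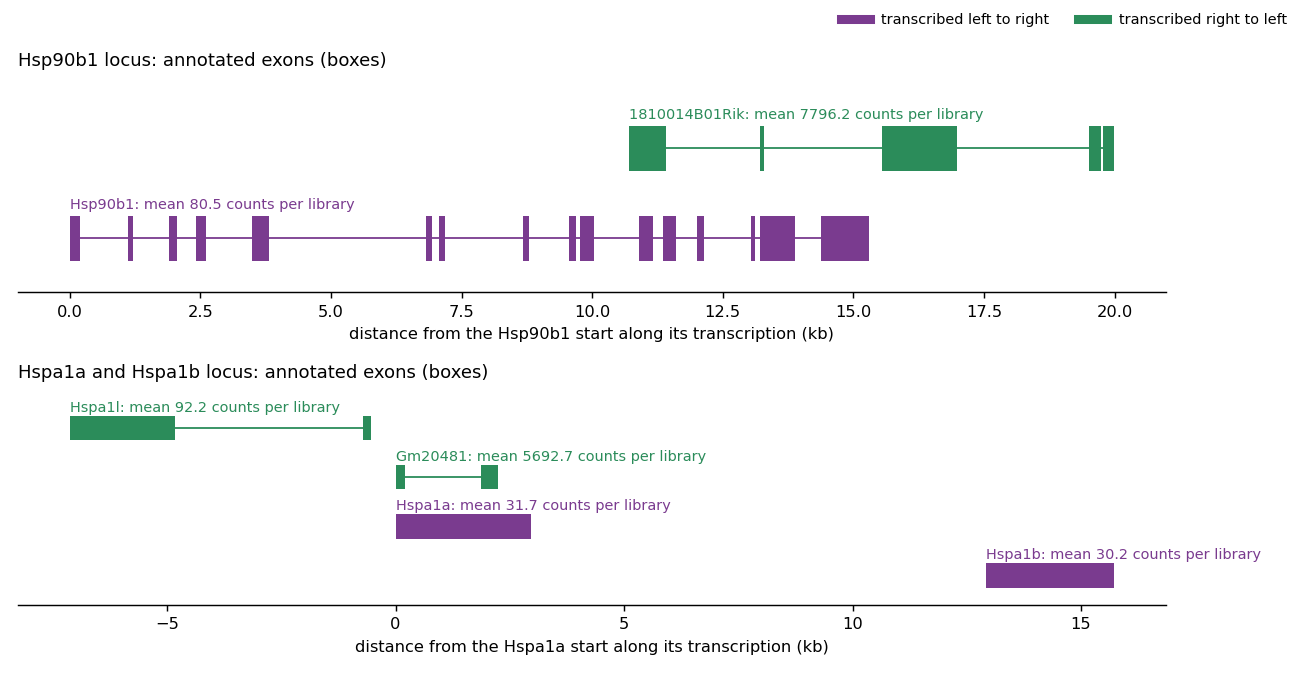
Annotated exons (boxes) of both loci, drawn by distance in kb from the start of Hsp90b1 (top) or Hspa1a (bottom), with the mean count per library beside each gene. Gm20481 lies wholly within Hspa1a and has a mean of 5692.7 counts against 31.7, while Hspa1b has no gene opposite it.

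Hspa1a (ENSMUSG00000091971) has 1 exon, at 34969190 to 34972156 of chromosome 17, and is read from the minus strand. Hspa1b (ENSMUSG00000090877), also of 1 exon and on the same strand, lies at 34956436 to 34959238, 9951 bp away. Gm20481 (ENSMUSG00000092609) lies on the plus strand from 34969912 to 34972136. Its 2 exons, 564 bp in all, fall entirely within the exon of Hspa1a and cover 19.0% of it. No annotated exon lies opposite Hspa1b, so Gm20481 is the opposite gene of Hspa1a alone, as the map of both loci shows.

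Hspa1a and Hspa1b are hard to tell apart by sequence. Their coding sequences were 99.4% identical, with 8 mismatches and 3 extra bases in Hspa1b, and their 5′ UTRs 98.7% identical. The 3′ UTRs differed, with 46.6% identity. Of the 2843 windows of 125 bases (the read length) in the Hspa1a transcript, 42.2% occurred unchanged in Hspa1b. Among the 708 windows of that transcript that touch an exon of Gm20481, 29.4% did. HTSeq by default leaves out reads that align to several places. As far as this pair goes, the counts of Hspa1a rest on the remaining 1643 windows and those of Hspa1b on 1479. For Gm20481 the number is 500, taken along the Hspa1a transcript. Windows across the splice junction of Gm20481 were not examined. The stretch under exon 1 of Gm20481 that is annotated as coding in both Hspa1a and Gm20481 is printed as Hspa1a reads. The same stretch of Hspa1b is printed with it, both on the minus strand (chr17:34970016-34970288 and chr17:34957095-34957370). Capitals mark bases that differ or are present in Hspa1b alone, as one alignment places them.
Hspa1a: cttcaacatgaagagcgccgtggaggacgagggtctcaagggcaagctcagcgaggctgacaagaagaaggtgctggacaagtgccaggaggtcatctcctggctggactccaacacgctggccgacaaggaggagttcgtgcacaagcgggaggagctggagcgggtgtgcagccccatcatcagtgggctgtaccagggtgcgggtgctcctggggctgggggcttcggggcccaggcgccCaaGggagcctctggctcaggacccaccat
Hspa1b: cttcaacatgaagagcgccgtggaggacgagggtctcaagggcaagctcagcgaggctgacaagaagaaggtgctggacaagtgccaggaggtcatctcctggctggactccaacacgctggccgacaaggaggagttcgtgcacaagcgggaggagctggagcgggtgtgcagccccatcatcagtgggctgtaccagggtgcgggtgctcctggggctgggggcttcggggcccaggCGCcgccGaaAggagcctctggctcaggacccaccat
There were 2 mismatches and 3 extra bases, all near the 3′ end of the stretch, and no difference in the bases before them.

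The promoters carry different stress elements. RefSeq's promoter sequences for GRCm38.p6 matched 3 of the 5 genes, and the 250 bases before each start are printed to show the elements by which the chaperones are known to be induced. Capitals mark matches to GAANNTTC, the core of the heat shock element bound by HSF1, in Hspa1a (chr17:34972157-34972406, minus strand) and Hspa1b (chr17:34959239-34959488, minus strand). In Hsp90b1 (chr10:86705445-86705694, minus strand) they mark CCAAT and CCACG with 9 bases of any kind between them, the ER stress response element of unfolded protein response genes. RefSeq's start of Hsp90b1 lies inside the GENCODE gene given above, so that part of this stretch does too. Matches were sought on both strands, and each ER stress response element contains a CCAAT box by construction.
Hspa1a: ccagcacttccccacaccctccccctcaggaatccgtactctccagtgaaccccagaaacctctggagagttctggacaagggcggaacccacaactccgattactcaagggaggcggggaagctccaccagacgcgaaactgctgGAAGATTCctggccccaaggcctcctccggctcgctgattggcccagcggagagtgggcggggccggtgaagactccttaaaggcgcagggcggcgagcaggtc
Hspa1b: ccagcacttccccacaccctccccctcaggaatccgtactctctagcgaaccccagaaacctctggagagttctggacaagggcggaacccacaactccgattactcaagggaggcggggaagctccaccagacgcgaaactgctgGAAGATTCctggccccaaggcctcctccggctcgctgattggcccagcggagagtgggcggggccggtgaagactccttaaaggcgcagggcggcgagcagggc
Hsp90b1: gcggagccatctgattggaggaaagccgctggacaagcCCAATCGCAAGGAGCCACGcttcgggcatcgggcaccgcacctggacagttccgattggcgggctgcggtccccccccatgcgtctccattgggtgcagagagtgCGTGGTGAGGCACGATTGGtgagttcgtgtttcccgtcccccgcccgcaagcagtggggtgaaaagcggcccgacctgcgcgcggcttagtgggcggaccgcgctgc
Hspa1a and Hspa1b differed at 3 of these 250 bases. Each held 1 match to the heat shock core, which 7.73% of 27025 genes hold in a promoter window of the same length. Hsp90b1 held 2 matches to the ER stress response element, 1 on each strand, which 0.130% of genes hold. Among ER chaperones and folding enzymes 7 of 18 promoters held the ER element and 0 of 18 the heat shock core. Among cytosolic heat shock genes the numbers were 0 of 22 and 5 of 22. These counts include the 3 genes printed here, Hsp90b1 among the 7 and Hspa1a and Hspa1b among the 5.

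As counted, the reads of both loci lay almost entirely on the opposite gene. The shares and ranks that follow take the strand as the table gives it. With strands exchanged, an opposite gene would hold reads from the strand of the chaperone, but only those within its own exons. These exons overlap 10.3% of the exon length of Hsp90b1, 19.0% of that of Hspa1a and none of Hspa1b. Levels and fold changes below take the strand in the same way. For Hsp90b1 the WT libraries (in the order WT2772, WT2777, WT2931) gave 94, 128 and 41 counts, and the flox/flox libraries (KO2775, KO2776, KO2938) 86, 80 and 54. 1810014B01Rik had 9217, 9110 and 6225 counts in the WT libraries and 9309, 7356 and 5560 in the flox/flox libraries, in the same order. Both genes had fewer counts in the 2 libraries of litter 2 than in any library of litter 1. 1810014B01Rik held 99.0% ± 0.24 (SD, n = 6) of the counts of the pair. This share ranged from 98.6% in WT2777 (Wilson 95% interval 98.4% to 98.8%) to 99.3% in WT2931 (99.1% to 99.5%), and the intervals cover counting error only. Each count of Hsp90b1 thus stood against 71.2 to 151.8 of the pseudogene.

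The WT libraries gave Hspa1a 23, 47 and 32 counts, and the flox/flox libraries 39, 36 and 13, listed as above. Hspa1b had 33, 35 and 31 counts in the WT libraries and 36, 33 and 13 in the flox/flox libraries. Gm20481 had 7108, 6982 and 4281 counts in the WT libraries and 6741, 6543 and 2501 in the flox/flox libraries. KO2938 was the lowest library for all 3 genes, and for Gm20481 both libraries of litter 2 lay below the others. Gm20481 held 98.9% ± 0.22 (SD, n = 6) of the counts of the 3 genes, from 98.5% in WT2931 (98.1% to 98.9%) to 99.2% in WT2772 (99.0% to 99.4%). The share was 99.0% ± 0.37 (SD, n = 3) in WT and 99.0% ± 0.083 in flox/flox libraries at the Hsp90b1 locus, and 98.9% ± 0.34 and 98.9% ± 0.038 at the Hspa1a and Hspa1b locus, so genotypes differed by less than the spread between WT libraries. Hspa1a and Hspa1b had 0.0193 and 0.0204 counts per distinct window in the mean. Gm20481 had 11.4, with its windows taken along the Hspa1a transcript.

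**Figure D2:**
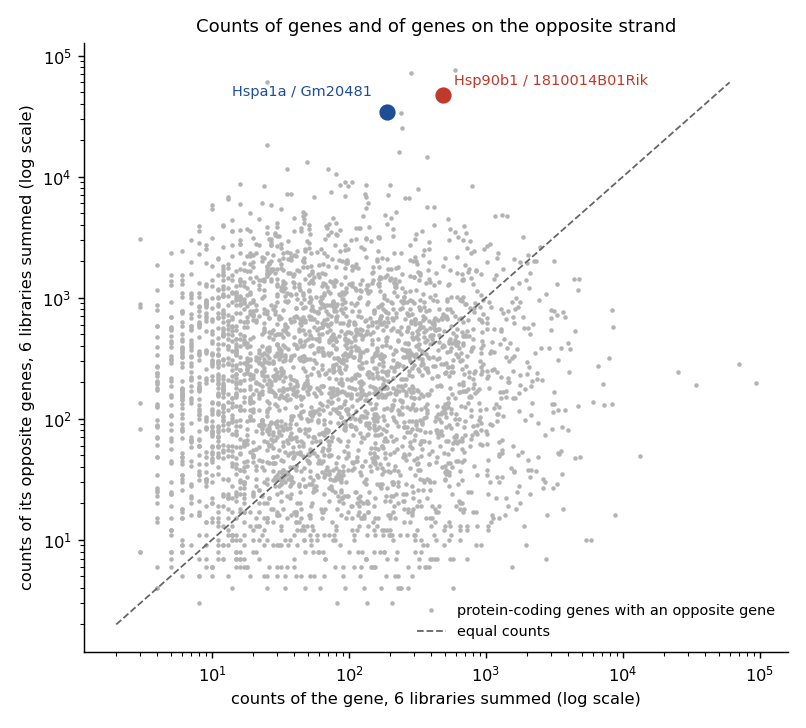
Each point is 1 of 3365 protein-coding genes with an opposite gene, with its own counts on the x axis and those of its opposite genes on the y axis, summed over the 6 libraries (log scales, dashed line at equal counts). Hsp90b1 (483 against 46777 counts) and Hspa1a (190 against 34156) lie far above the line, among the points with the most counts opposite them.

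With strands as counted, 1810014B01Rik ranked 7th and Gm20481 11th of all genes by total count, with 1.10% and 0.805% of all counts, while Hsp90b1 ranked 1191st, Hspa1a 2539th and Hspa1b 2630th. Per kb of exon the mean level was 14916 CPM (counts divided by the library size after TMM normalization and brought to a common scale) for Gm20481, 4358 for 1810014B01Rik, 29.5 for Hsp90b1, 15.9 for Hspa1b and 15.7 for Hspa1a. On this scale Hspa1b and Hspa1a overlapped between libraries, from 8.11 to 20.7 and from 7.66 to 21.4. Of 3365 protein-coding genes with at least 1 opposite gene in the table, 2173 (64.6%) had fewer counts than their opposite genes, with a median share of 70.6% on the opposite genes. Where every opposite gene was non-coding this held for 1002 of 1205 genes (83.2%). The share of Hsp90b1 was reached or passed by 161 of the 3365 genes and that of Hspa1a, counted without Hspa1b, by 61. The plot of genes against their opposite genes shows both.

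Loss of A830019P07Rik was the contrast the study was made for, and the levels of the 5 genes overlapped between WT and flox/flox libraries in each case, while 7.43% of all genes tested had no overlap. Gm20481 had 8201 ± 2118 CPM in WT and 8624 ± 3764 in flox/flox libraries (SD, n = 3 each). 1810014B01Rik had 10962 ± 2243 and 12151 ± 2148 CPM. Hsp90b1 had 116.8 ± 56.3 and 120.9 ± 23.9 CPM, Hspa1a 45.3 ± 14.8 and 48.0 ± 22.0, and Hspa1b 44.2 ± 2.0 and 44.7 ± 19.2. All 5 genes passed the low-count filter, and none passed an adjusted p-value of 0.05 by edgeR's quasi-likelihood test, where 0 of 5478 genes tested did (0%). Before adjustment 101 genes (1.84%) had a p-value under 0.05, and DESeq2 gave 0 and 35 genes. With litter as a block 3 genes passed (0.0548%), none of them among the 5. In flox/flox relative to WT the log2 fold change was 0.15 (standard error 0.20) for 1810014B01Rik, 0.09 (0.36) for Hspa1a, 0.07 (0.30) for Gm20481, 0.05 (0.31) for Hsp90b1 and 0.02 (0.32) for Hspa1b, each with an adjusted p of 1.00 by edgeR. These signs depend on the processing, and with library size in place of TMM all 5 were negative. Hspa1a and Hspa1b rest on 13 to 47 counts per library.

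**Figure D3:**
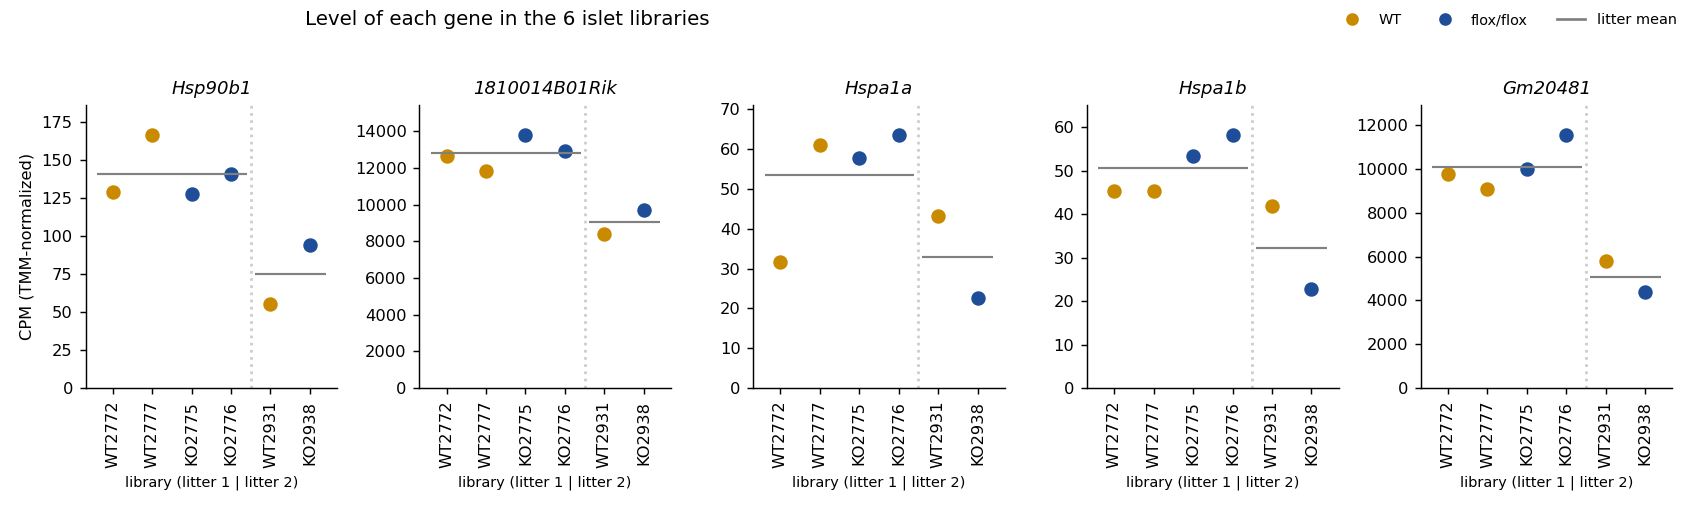
CPM after TMM normalization of each of the 5 genes in the 6 libraries, with WT in orange, flox/flox in blue and a grey line at the mean of each litter. The 2 libraries of litter 2, right of the dotted line, lie below all 4 of litter 1 for every gene but Hspa1a, where WT2772 lies between them.

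By litter the levels were further apart, with litter 2 the lower. Gm20481 had 9752, 9062, 9979 and 11523 CPM in WT2772, WT2777, KO2775 and KO2776 of litter 1, and 5788 and 4371 CPM in WT2931 and KO2938 of litter 2. Litter 2 was at 0.504 times the level of litter 1, and the groups did not overlap. On this contrast the log2 fold change was -0.99 (standard error 0.16, adjusted p = 9.2e-06 by edgeR with genotype in the model).

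Hsp90b1 had 129.0, 166.1, 127.3 and 140.9 CPM in the libraries of litter 1, in the same order, and 55.4 in WT2931 and 94.4 in KO2938. It fell to 0.518 times the level of litter 1, a change of -0.95 on the log2 scale (standard error 0.20, adjusted p = 5.8e-04 by edgeR). 1810014B01Rik had 12646, 11824, 13781 and 12955 CPM in litter 1, and 8416 in WT2931 and 9717 in KO2938. The pseudogene fell to 0.707 times, a change of -0.50 on the log2 scale (standard error 0.15, adjusted p = 0.0208 by edgeR). For both genes of this locus the libraries of litter 2 lay below all of litter 1, with WT2931 the lowest.

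Hspa1a had 31.6, 61.0, 57.7 and 63.4 CPM in litter 1, and 43.3 in WT2931 and 22.7 in KO2938. Its log2 fold change was -0.64 (standard error 0.29, adjusted p = 0.16 by edgeR). Hspa1b had 45.3, 45.4, 53.3 and 58.1 CPM in litter 1, and 41.9 in WT2931 and 22.7 in KO2938, and a change of -0.59 (0.28, adjusted p = 0.179). Neither Hsp70 gene passed the test, and the litters overlapped for Hspa1a.

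**Figure D4:**
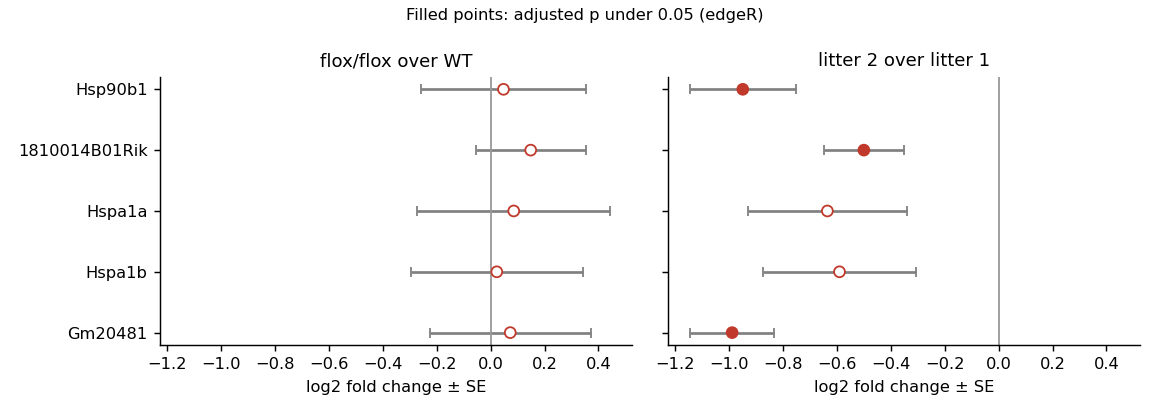
Log2 fold change of each of the 5 genes with its standard error, flox/flox over WT (left) and litter 2 over litter 1 (right), with points filled where edgeR's adjusted p was under 0.05. The genotype values lie between 0.02 and 0.15, and the litter values between -0.99 and -0.50.

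In all, 3 of the 5 genes were called lower in litter 2, where 5.24% of the 5478 genes tested were called lower and 11.3% called in either direction. Litters did not overlap, with litter 2 lower, for 4 of the 5 genes and for 16% of all genes tested (32.9% in either direction). The genes were chosen with these counts known, and nothing is read from the comparison with that background. The contrast sets 4 mice against 2, and KO2938 is also the library with the most AY036118 counts, whose part in the litter values was not tested. The summed level of the beta cell markers (10 of 10 with a row) was 487.1 to 608.7 CPM in litter 1 and 393.2 to 442.1 in litter 2, though 0 of the 5 tested were called (median -0.36). That of the alpha cell markers (4 of 6 with a row) was 84.4 to 189.5 and 57.7 to 73.0 CPM, and Gcg was called lower (-1.13, standard error 0.27, adjusted p = 0.00267 by edgeR). Krt7 (1 of 5 ductal markers with a row) was higher in litter 2, at 44.6 to 62.9 against 20.8 to 40.0 CPM (0.84, 0.28, adjusted p = 0.0416). The sums of delta and PP cell, acinar, endothelial, stromal and immune markers overlapped between litters, and no marker with a row was at 0 throughout either litter. The part of these markers in the litter values was not tested. In bulk RNA fewer cells of a type and less RNA per cell cannot be told apart. Because the orientation of the libraries was not tested, marker counts may also come from the strand opposite each marker. Leaving out KO2938 or WT2931 leaves litter 2 with 1 mouse, which is then assumed to vary like the other libraries, so the values that follow set 1 library against litter 1. Without KO2938 the change was -0.69 for Gm20481 (adjusted p = 0.00281), -1.41 for Hsp90b1 (1.3e-05) and -0.53 for 1810014B01Rik (0.0373), by edgeR. The value was then -0.10 for Hspa1a and -0.11 for Hspa1b (adjusted p = 0.916 and 0.91). Without WT2931, where KO2938 stands alone for litter 2, Hsp90b1 was no longer called (-0.50, adjusted p = 0.318 by edgeR), Hspa1a was (-1.40, 0.0455) and Hspa1b stood at -1.28 (0.0801). Hspa1a was also called without WT2772 (-0.90, adjusted p = 0.0289 by edgeR). For 1810014B01Rik the change stayed between -0.53 and -0.45 whichever library was left out, but it was no longer called without WT2772, WT2931, KO2775 or KO2776 (adjusted p = 0.0541 to 0.174 by edgeR).

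The difference between flox/flox and WT was compared between litters with an interaction term, for which litter 2 has only 1 library of each genotype. Of the 5478 genes tested, 7 passed (0.128%), and none of the 5 was among them. In litter 2 Gm20481, Hspa1a and Hspa1b were lower in KO2938 than in WT2931, while Hsp90b1 and 1810014B01Rik were higher. The interaction on the log2 scale was 0.91 (standard error 0.38, adjusted p = 0.51 by edgeR) for Hsp90b1, -0.60 (0.25, 0.535) for Gm20481, -1.30 (0.59, 0.607) for Hspa1a, -1.17 (0.59, 0.689) for Hspa1b and 0.08 (0.26, 0.986) for 1810014B01Rik.

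**Figure D5:**
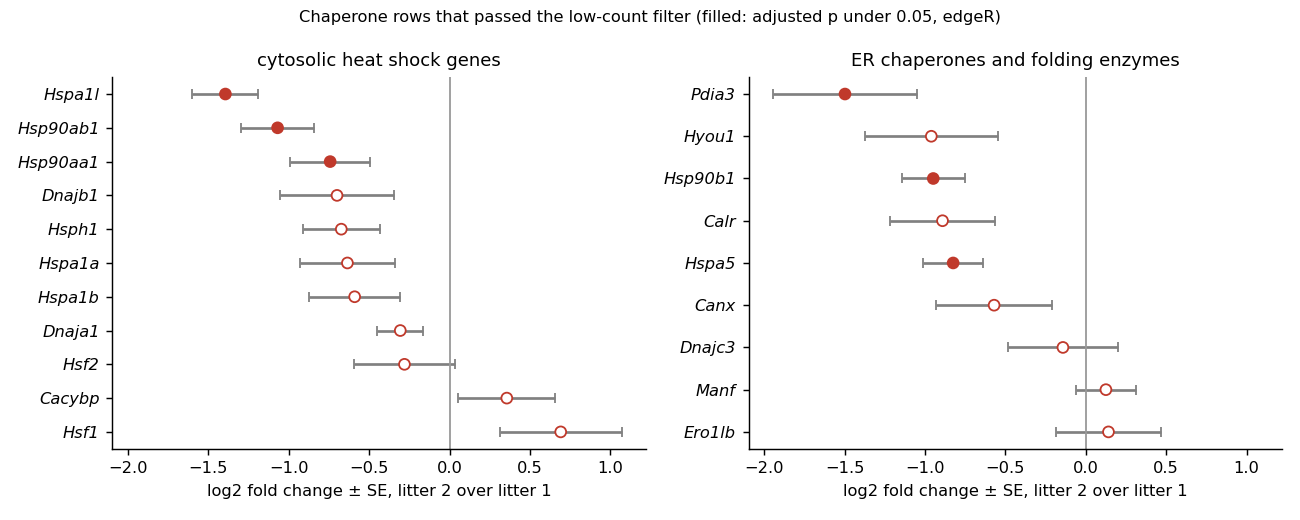
Log2 fold change with standard error, litter 2 over litter 1, of each chaperone gene that passed the low-count filter, with points filled where edgeR's adjusted p was under 0.05. All filled points lie left of 0, from -1.50 for Pdia3 to -0.74 for Hsp90aa1.

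Other chaperone genes were read on the same litter contrast, with strands as counted. With library orientation untested, each change given for the lists below is one of counts in a row. It cannot be assigned to the mRNA of the named gene. Of 28 cytosolic heat shock genes, 27 had a row and 9 besides Hspa1a and Hspa1b passed the low-count filter, of which 3 were lower in litter 2 and 0 higher. Over all genes tested 5.24% were called lower, a share to set beside this and the counts below, which come from lists chosen with results of these data known. Hspa1l, an Hsp70 gene that starts 546 bp from Hspa1a on the opposite strand, had 28 to 131 counts per library and fell by 1.39 on the log2 scale (standard error 0.21, adjusted p = 2.2e-06 by edgeR). Hsp90ab1 and Hsp90aa1, the constitutive and the inducible cytosolic Hsp90, fell by 1.07 (0.23, adjusted p = 7.5e-04) and 0.74 (0.25, 0.0421). Dnaja1, an Hsp40 co-chaperone and at 157.3 counts per library the highest of the list, did not pass (-0.31, standard error 0.14, adjusted p = 0.166). The median of the 9 genes was -0.67, against -0.009 over all genes tested.

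Of 24 ER chaperones and folding enzymes, all had a row and 8 besides Hsp90b1 were tested, of which 2 were lower in litter 2 and 0 higher, with a median of -0.70. Hspa5, which encodes the ER Hsp70 BiP and works with GRP94, had 69 to 204 counts and fell by 0.83 (standard error 0.19, adjusted p = 0.00157 by edgeR). Pdia3, a disulfide isomerase of glycoproteins, fell by 1.50 (0.45, adjusted p = 0.0206) and rests on 5 to 24 counts per library. Manf, a secreted ER stress protein, did not pass (0.13, 0.19, adjusted p = 0.725). Its opposite gene 4930524O07Rik, with 559 to 1087 counts against 54 to 89, fell by 0.54 (0.13, adjusted p = 0.00356). None of the 4 unfolded protein response regulators tested, of 17 listed, was called, with a median of 0.05. Among them Syvn1, an ubiquitin ligase of ER-associated degradation, stood at -0.10 (0.20, adjusted p = 0.816), the stress transcription factor gene Ddit3 at 0.52 (0.20, 0.0779) and Derl3, a gene of the same degradation pathway, at 0.19 (0.34, 0.771). None of 5 mitochondrial chaperones tested, of 9 listed, was called, with a median of 0.24, among them Grpel1 at -0.12, Lonp1 at 0.24 and Dnaja3 at 0.63. By genotype 0 genes of these 4 lists were called.

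Besides the loci described, 14 listed genes had an opposite gene in the table, and in 8 the opposite gene held more counts. Hspd1 and Hspe1 lie opposite each other, so this pair is counted from both sides. Over all protein-coding genes with an opposite gene, 64.6% had fewer counts than their opposite genes. Of the 11 opposite genes tested, 3 were lower in litter 2 and 0 higher (median -0.07). The 3 were 4930524O07Rik, Gm10501 opposite Hspa1l (-1.75, standard error 0.28, adjusted p = 1.1e-05 by edgeR) and Smu1 opposite Dnaja1 (-1.37, 0.27, 3.0e-04). Mrpl49 opposite Syvn1 stood at 0.54 (0.19, adjusted p = 0.0504 by edgeR) and was not called. Neither were Mars opposite Ddit3 (-0.07), Tada2b opposite Grpel1 (0.10) and Coro7 opposite Dnaja3 (-0.40).

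The levels of the 5 genes over the 6 libraries were most alike for Gm20481 and Hspa1b, with a Pearson correlation of log2 CPM of 0.913, followed by 0.864 for Hsp90b1 and 1810014B01Rik, 0.860 for 1810014B01Rik and Gm20481, and 0.856 for Hspa1a and Hspa1b. It was lowest for Hsp90b1 and Hspa1b, at 0.395. These are descriptions over 6 points that share litter and library depth, and other genes were closer. 1810014B01Rik ranked 244th of the other 5477 genes by nearness to Hsp90b1. The 3 nearest genes were 9530052E02Rik (0.996), M5C1000I18Rik (0.996) and Ccdc84 (0.994) for Gm20481, and Tm7sf3 (0.995), Rnf220 (0.994) and Surf1 (0.990) for 1810014B01Rik. They were Ncoa4 (0.992), Gm19178 (0.992) and Gm33023 (0.991) for Hsp90b1. For Hspa1a they were Gm10069 (0.979), Srf (0.975) and Srsf11 (0.974), and for Hspa1b Gm26723 (0.989), Gm24157 (0.982) and Mtif2 (0.981).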

How the data were processed

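Strand-specific total RNA libraries of mouse islets were sequenced by the authors as single-end reads of 125 bases. They discarded rRNA reads, mapped the rest to mm10 with Hisat2 2.1.0 and counted Ensembl genes with HTSeq at its defaults apart from the alignment quality. The deposited counts are whole numbers per gene and library, without normalization, for genes with at least 3 counts in all. A deposited table of the authors' own DESeq2 comparison (mean, fold change, error, p-values) was not used. Of 15286 genes, 15258 matched a symbol. Positions and exon overlaps come from GENCODE M21 (GRCm38), a later release than the authors'. Counts were tested with edgeR 4.0.16 (R 4.3.3), with TMM, the default filter (minimum count 10) and Benjamini-Hochberg adjustment over 5478 genes. Genotype was the only term, and litter was tested with genotype in the model. Standard errors are those implied by the F statistic. The scripts were tested on simulated data. Alternatives were DESeq2 1.42.0, other normalizations and filters, robust estimation, litter as a block, summed loci and each library left out. Genotype groups and litters follow the labels.

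The labels give each mouse a litter, and litter pairs the genotypes. Deviations from genotype means correlated at 0.14 to 0.46 between WT and flox/flox libraries of the same litter (5 pairs) and at -0.35 to -0.25 between litters (4 pairs). Deviations within a genotype cancel out by construction, so the negative range is no separate sign of pairing by litter. All 15 pairs of libraries differed beyond sampling noise (lowest chi-square ratio to its degrees of freedom 1.59). Within litter 1 the ratio was 1.59 for WT2772 with KO2775 and 1.67 for WT2777 with KO2776. Every other pair of litter 1 had 3.02 to 3.93. The paper sequenced mutants and littermate controls as pairs. Pairing within litter 1 was not modelled, and all libraries of litter 1 were treated as independent. The members and gene lists were chosen with earlier results of these data known. Named genes are the 5 members, in each of 4 chaperone lists the 3 genes of highest mean count and any called by genotype or litter, with their opposite genes where tested, the 3 genes nearest to each member by Pearson correlation of log2 CPM (prior count 2), and markers of islet cell types. Sequences come from GENCODE transcripts and RefSeq promoters.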

Additional observations from a re-analysis of the deposited data

How the results depend on the processing

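By genotype no setting called any of the 5 genes. With library size only, 2 of all genes passed, and the log2 fold changes were -0.13 for Hsp90b1, -0.023 for 1810014B01Rik, -0.074 for Hspa1a, -0.15 for Hspa1b and -0.062 for Gm20481, against a median shift of all genes from -0.011 to -0.23. With litter as a replicate block 3 genes passed, none of them a member, and Hspa1b (-0.0040) and Gm20481 (-0.0045) changed sign. The block changed no other call. With one replicate left out, 0 to 1 genes passed and the fold changes by genotype ranged from -0.28 to 0.40 for Hsp90b1, -0.0015 to 0.29 for 1810014B01Rik, -0.14 to 0.42 for Hspa1a, -0.19 to 0.34 for Hspa1b and -0.18 to 0.40 for Gm20481.

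By litter 620 genes were called, 186 with DESeq2, 265 with library size only and 233 to 540 with one replicate left out, with 233 without WT2931. All settings kept the 5 fold changes negative. 1810014B01Rik lost its call without a low-count filter (-0.47, adjusted p = 0.0982 by edgeR) and with library size only (-0.70, 0.263), kept it with DESeq2 (-0.50, 1.5e-04) and robust estimation (-0.50, 0.00104), and was left out with the 10 most abundant genes. Gm20481 was called in every setting run. With both strands summed, the Hsp90b1 locus stood at -0.50 (adjusted p = 0.0196 by edgeR) and the Hspa1a and Hspa1b locus at -0.99 (1.0e-05), sums made up mostly of the opposite genes. For the interaction, 7 genes passed, 0 without a filter, where 1810014B01Rik changed sign (-0.0073), and 2 with robust estimation. These 2 settings and RLE were added for it after seeing the data. Per exon length the share on the opposite gene was 99.3% at the Hsp90b1 and 99.8% at the Hspa1a and Hspa1b locus. The cause of these changes was not tested.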
